A study of Homo sapiens with 8 samples.

Results

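The genes described were 10 histone deacetylase genes other than *HDAC1* and *HDAC2*, namely *HDAC3* to *HDAC11* and *SIRT1*, out of 19974 protein-coding genes in the gene table used. They were chosen by name, and every H3K27ac peak that overlapped one of the genes or the 20 kb on either side of it was taken. The peaks came from MIA PaCa-2, a human pancreatic carcinoma line labelled as epithelial. Both stable lines carried the same CRISPR activation system (lentiMPHv2 and lentiSAMv2). MP2_HDAC1_OE carried a guide RNA that recruits the activator to *HDAC1*, and MP2_NTC carried a non-targeting guide. Each line had 2 H3K27ac samples, made with the Abcam ab4729 antibody, and 2 control samples without antibody. Each guide was represented by 1 stable line, and the authors deposited 1 reproducible peak list per line that pooled both samples, so the values have no replicate error and no test was possible.

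Histone deacetylases remove acetyl groups from lysines of histones and other proteins. *HDAC3* and *HDAC8* encode class I enzymes, and HDAC3 is the catalytic subunit of nuclear receptor corepressor complexes. *HDAC4*, *HDAC5*, *HDAC7* and *HDAC9* encode class IIa proteins, which shuttle between nucleus and cytoplasm and bind MEF2 transcription factors. *HDAC6*, a mainly cytoplasmic tubulin deacetylase, and *HDAC10*, a polyamine deacetylase, are class IIb, and *HDAC11* is class IV. *SIRT1* encodes a sirtuin, whose activity depends on NAD+. Acetylation of lysine 27 of histone H3 (H3K27ac) marks active promoters and enhancers, and the peaks describe the chromatin of these genes, not the amount or the activity of the enzymes.

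H3K27ac lay at a listed start of nearly all of these genes in both lines, and the base composition around those starts varied widely. The 250 bases before 6 of the starts are shown 5′ to 3′ from RefSeq (GRCh38.p14), because they include the strongest start (*HDAC4*), starts rich in motif matches (*SIRT1*, *HDAC10*) and starts with peaks of MP2_HDAC1_OE alone or with ranks far apart between the lines (*HDAC7*, *HDAC9*). Capitals mark matches, on either strand, to GGGCGG (the GC box), CCAAT or CACGTG (the E-box). TATAAA and TGACTCA were also searched and had no match at any listed start of the 10 genes.
HDAC4, first start (chr2:239401650-239401899, minus strand): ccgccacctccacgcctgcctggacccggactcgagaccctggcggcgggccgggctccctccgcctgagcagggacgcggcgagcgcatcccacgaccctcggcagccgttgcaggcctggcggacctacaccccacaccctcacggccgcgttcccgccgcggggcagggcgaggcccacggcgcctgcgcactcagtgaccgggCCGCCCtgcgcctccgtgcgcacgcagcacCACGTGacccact
SIRT1 (chr10:67884406-67884655, plus strand): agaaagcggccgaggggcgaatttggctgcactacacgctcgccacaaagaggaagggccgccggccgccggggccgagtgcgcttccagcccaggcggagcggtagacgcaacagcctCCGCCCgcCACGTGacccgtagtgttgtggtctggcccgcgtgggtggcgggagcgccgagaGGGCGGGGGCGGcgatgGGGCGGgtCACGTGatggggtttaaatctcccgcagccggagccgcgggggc
HDAC10 (chr22:50251266-50251515, minus strand): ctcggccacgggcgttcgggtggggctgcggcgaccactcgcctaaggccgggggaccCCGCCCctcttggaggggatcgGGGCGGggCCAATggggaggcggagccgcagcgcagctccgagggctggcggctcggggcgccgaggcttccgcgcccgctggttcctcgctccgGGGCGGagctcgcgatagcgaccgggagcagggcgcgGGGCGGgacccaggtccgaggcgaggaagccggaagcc
HDAC7 (chr12:47819904-47820153, minus strand): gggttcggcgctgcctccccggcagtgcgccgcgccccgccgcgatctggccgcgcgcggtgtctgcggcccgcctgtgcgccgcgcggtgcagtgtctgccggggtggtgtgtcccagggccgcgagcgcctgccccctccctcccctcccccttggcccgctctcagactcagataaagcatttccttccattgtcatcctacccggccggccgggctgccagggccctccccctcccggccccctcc
HDAC9, internal start 1 (chr7:18495460-18495709, plus strand): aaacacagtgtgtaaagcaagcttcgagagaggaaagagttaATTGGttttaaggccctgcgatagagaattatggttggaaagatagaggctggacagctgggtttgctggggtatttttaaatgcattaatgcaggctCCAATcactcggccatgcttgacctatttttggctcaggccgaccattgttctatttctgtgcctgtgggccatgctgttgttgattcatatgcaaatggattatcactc
HDAC9, internal start 2 (chr7:18509020-18509269, plus strand): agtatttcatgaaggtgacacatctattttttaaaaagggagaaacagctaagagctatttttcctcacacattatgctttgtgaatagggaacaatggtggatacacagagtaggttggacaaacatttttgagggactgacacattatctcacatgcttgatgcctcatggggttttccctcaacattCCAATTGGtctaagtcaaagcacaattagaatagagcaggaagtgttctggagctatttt

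In the 300 bases from 250 before to 50 after each start, the first start of *HDAC4* was 76.3% G or C with 40 CG dinucleotides, and that of *HDAC10* was 77.0% with 40. *SIRT1* was at 72.7% with 39 CG, with 4 GC boxes and 2 E-boxes. *HDAC7* was at 74.7% with 33 CG and held none of the 5 motifs. The internal *HDAC9* starts were of another kind. Internal start 1 was 45.3% G or C with 5 CG, and internal start 2 was 40.0% with 0 CG. The CCAAT matches of internal start 2 lie on opposite strands and share bases. Over all 35116 listed promoters the median was 58.7% G or C (quartiles 47.0% and 68.0%) and 14 CG dinucleotides. A GC box was found in 45% of all promoters, CCAAT in 34.6%, TATAAA in 11.5%, CACGTG in 7.26% and TGACTCA in 4.95%. These matches are descriptions of the letters and not of binding.

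The MP2_HDAC1_OE list held 25045 peaks and the MP2_NTC list 22569. A single width of 820 bp was shared by 56.4% of MP2_HDAC1_OE peaks and 61.7% of MP2_NTC peaks. That width was not read as the extent of the mark, and overlaps between the lists depend on it. Peaks of MP2_HDAC1_OE had a median signal, as the authors' caller gave it, of 46.46 (lowest 11.01, highest 184.9). For MP2_NTC the median was 49.34 (lowest 11.67, highest 220.4). The scaling of this signal between the lists is not known. Each peak was therefore also given a rank, the percentage of peaks in its own list with a lower signal, and the ranks rather than the signals were compared between the lines. The score comes from the authors' test of reproducibility and has its highest value at 1000, which 33.8% of MP2_HDAC1_OE peaks and 40.4% of MP2_NTC peaks reached. At the start of the targeted gene *HDAC1*, the rank was 93.89 in MP2_HDAC1_OE and 45.23 in MP2_NTC. Among 11 markers, 3 (*KRT18*, *VIM* and *ZEB1*) had a peak at a start or gene end in both lists. *KRT8* had 1 in MP2_HDAC1_OE alone (rank 50.54) and *KRT19* in MP2_NTC alone (rank 6.859). *KRT18* and *KRT19* have no listed start, so their peaks lay at a gene end that may not be the start. Of all protein-coding genes with a listed start, 38.7% had a start peak in both lists, 6.44% in MP2_HDAC1_OE alone and 5.62% in MP2_NTC alone. These shares do not cover markers without a listed start. The epithelial markers *EPCAM* and *CDH1* had none at their gene ends, and neither did the acinar, leukocyte and endothelial markers *PRSS1*, *CPA1*, *PTPRC* and *PECAM1* at their starts or gene ends.

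The windows of the 10 genes held 30 peaks of MP2_HDAC1_OE and 34 of MP2_NTC. Their median rank was 55.72 in MP2_HDAC1_OE and 41.9 in MP2_NTC. The MP2_NTC count and median include intervals at *HDAC4* and *HDAC6* listed a second time with another summit, at ranks of 15.61 and 1.236. Of the MP2_HDAC1_OE peaks 18 lay within 1 kb of a start of one of the 10 genes, and 22 of the MP2_NTC peaks did. All 10 genes had a peak of either list in the window, against 63.4% of all protein-coding genes. That share was not matched on gene length, and the windows of the 10 genes ran from 46083 bp (*HDAC10*) to 955592 bp (*HDAC9*). The table of starts listed 9 of the 10 genes. For *HDAC5*, which it did not list, both gene ends were used. All 9 had an MP2_HDAC1_OE peak within 1 kb of a start, where 45.2% of the 15813 protein-coding genes with a listed start did. An MP2_NTC peak was found at 8 of the 9, and at 44.3% of the protein-coding genes. The exception was *HDAC7*, the 1 gene of 9 with a start peak of MP2_HDAC1_OE alone, against 6.44% of protein-coding genes. A gene counted through any of its listed starts, of which *HDAC4* and *HDAC9* have 5 and *HDAC6* has 3. The shares of protein-coding genes were not matched on the number of starts. *HDAC9* counted through internal starts alone, and the listed *HDAC7* start lies inside the gene. With the 75% of each list with the highest signal, *HDAC7* had no start peak in either line and *HDAC9* was the gene with a start peak of MP2_HDAC1_OE alone.

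*HDAC4*, *HDAC6*, *SIRT1* and *HDAC10* took the first 4 places by start rank, in the same order, in both lines. In MP2_HDAC1_OE it ran from *HDAC4* (98.5) through *HDAC6* (86.1), *SIRT1* (76.97), *HDAC10* (75.14), *HDAC8* (66.52), *HDAC3* (63.44), *HDAC9* (62.49) and *HDAC11* (48.13) to *HDAC7* (21.27). In MP2_NTC it ran from *HDAC4* (96.79) through *HDAC6* (90.29), *SIRT1* (71.88), *HDAC10* (59.6), *HDAC11* (47.98), *HDAC8* (47.24) and *HDAC3* (42.98) to *HDAC9* (15.81). Without replicates it is not known which neighbours in either order differ beyond the spread of the samples. The rank was higher in MP2_HDAC1_OE at 7 of the 8 genes with a start peak in both lists, with *HDAC6* the exception, where 54.6% of protein-coding genes with both had a higher MP2_HDAC1_OE rank. The median difference was 10.32 percentile points over the 8 genes and 1.11 over the protein-coding genes. The count fell to 6 when both lists were set to equal numbers of peaks or when ranks were taken among merged intervals, and the gene that changed side in both was *HDAC11*, whose ranks differed by 0.1481 points.

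**Figure D1:**
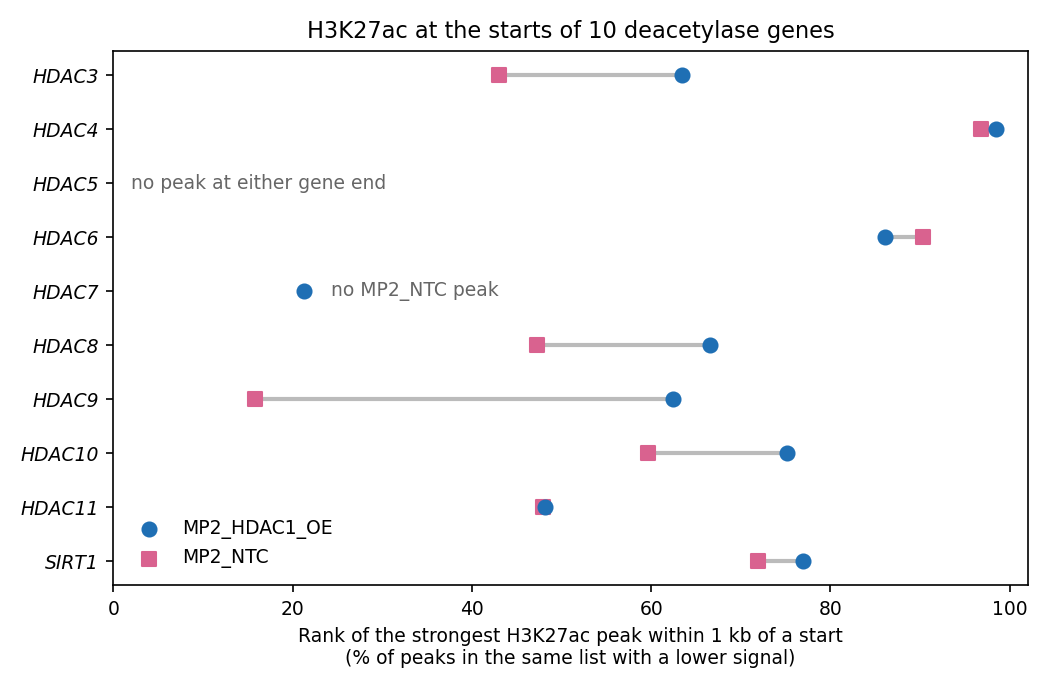
Rank of the strongest H3K27ac peak within 1 kb of a start of each gene, in percent of the peaks of the same list with a lower signal, with circles for MP2_HDAC1_OE, squares for MP2_NTC and a grey line between them. *HDAC9* had the widest gap within 1 kb (62.49 against 15.81), though not within 2 kb, *HDAC4* was above 96 in both, *HDAC7* had an MP2_HDAC1_OE peak alone and *HDAC5* had none.

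Overlapping peaks of both lists were merged into 27 regions in these windows. Both lists contributed to 12 (44.4%, 95% Wilson interval 27.6 to 62.7), where 50.7% of all 18678 merged regions were shared. Another 7 were unique to MP2_HDAC1_OE (25.9%, interval 13.2 to 44.7), against 28.6% of all regions. The other 8 were unique to MP2_NTC (29.6%, interval 15.9 to 48.5), against 20.7%. All 3 intervals held the share of the whole set. They cover counting error alone and take the regions as independent, though *HDAC9* held 8 of the 27, so they may be too narrow. The regions fell as follows by place. Of the 13 regions at a start of one of the 10 genes, 9 were shared, 2 were unique to MP2_HDAC1_OE and 2 to MP2_NTC, where 63.9% of all regions at a listed start were shared. Away from every listed start were 0 of the 12 shared regions, against 32.3% of all shared regions on the chromosomes with listed starts. The same held for 3 of the 7 regions unique to MP2_HDAC1_OE, against 63.6% of all such regions, and for 4 of the 8 unique to MP2_NTC, against 56.8%. Regions in the windows lie in or near a gene by selection, so these counts away from starts have no like background. Unique regions had ranks from 21.27 to 61.76 in MP2_HDAC1_OE and from 1.644 to 50.73 in MP2_NTC.

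**Figure D2:**
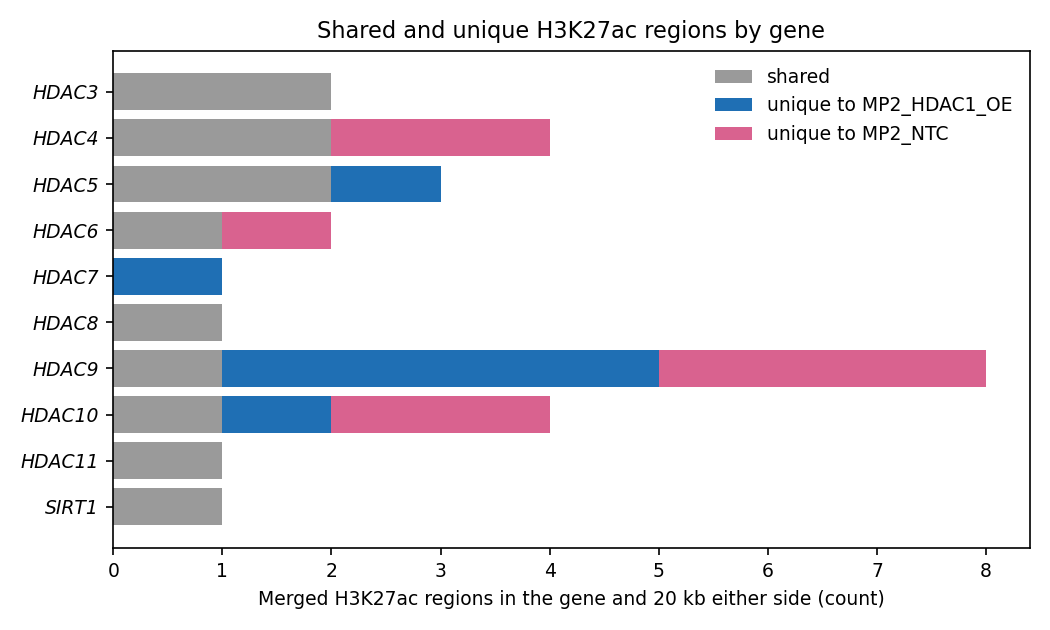
Number of merged H3K27ac regions in each gene and 20 kb either side, stacked from 0 as shared (grey), unique to MP2_HDAC1_OE (blue) and unique to MP2_NTC (pink). *HDAC9* held 8 of the 27 regions, of which 1 was shared, and *HDAC7* was the gene with no shared region.

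Among the class I genes, both *HDAC3* and *HDAC8* had a shared start region of middle rank that ranked higher in MP2_HDAC1_OE. *HDAC3* (chr5:141620881-141636849, minus strand) starts 148 bp from *RELL2*, which is read in the opposite direction. Its MP2_HDAC1_OE peaks were at chr5:141635936-141636755 (signal 45.58, rank 48.35, score 1000) and chr5:141636248-141637067 (signal 54.07, rank 63.44, score 875). The MP2_NTC peak was at chr5:141636787-141637606 (signal 45.54, rank 42.98, score 640). The summits of the MP2_HDAC1_OE peaks lay 504 and 192 bp inside *HDAC3*, and that of the MP2_NTC peak lay before its start (-347 bp), past the start of *RELL2*. The intervals overlapped, so the region counted as shared, with a difference of 20.46 points. These peaks cannot be assigned to 1 of the neighbouring genes alone.

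The other *HDAC3* window region was at the start of *DIAPH1*, a neighbour that encodes a formin. It held the MP2_HDAC1_OE peak chr5:141618420-141619239 (signal 76.9, rank 86.81, score 1000) and the stronger MP2_NTC peak chr5:141618497-141618897 (signal 114.7, rank 96.75, score 1000). The difference there was -9.94 points (MP2_HDAC1_OE minus MP2_NTC), the opposite direction from the *HDAC3* start.

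*HDAC8* (chrX:72329516-72572843, minus strand) had 1 peak per line, both at the start. The MP2_HDAC1_OE peak chrX:72572817-72573119 (signal 56.12, rank 66.52, score 932) was 303 bp wide. The MP2_NTC peak chrX:72572550-72573369 (signal 47.81, rank 47.24, score 775) had the common width of 820 bp and enclosed it, which does not show a wider mark. The summits lay at -113 and -116 bp, just before the start. The difference was 19.28 points, and 20.6% of all shared regions were at least as far toward MP2_HDAC1_OE. The bases around this start held 49.3% G or C, 9 CG dinucleotides and none of the 5 motifs.

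The class IIa genes had the strongest and the weakest starts of the 10. *HDAC4* (chr2:239048168-239401649, minus strand) has 5 listed starts, and H3K27ac was found at 2 of them. Its first start lies 71 bp from that of *HDAC4-AS1* on the other strand, so peaks there cannot be given to 1 of the genes. The MP2_HDAC1_OE peaks chr2:239401325-239401782 (signal 107.3, rank 97.51) and chr2:239401618-239402107 (signal 115.6, rank 98.5) both covered the start, with summits on either side of it. In MP2_NTC, chr2:239401295-239401745 (signal 92.37, rank 91.06) and chr2:239401617-239402133 (signal 115.1, rank 96.79) took nearly the same positions, and the interval of the latter was listed a second time with another summit (signal 26.91, rank 15.61). All 5 peaks had a score of 1000, and the ranks of the strongest differed by 1.711 points.

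At the internal *HDAC4* start (position 239274781) the direction was the reverse. The MP2_HDAC1_OE peak chr2:239275300-239276119 had a signal of 44.38 (rank 45.95, score 646). The MP2_NTC peaks chr2:239274858-239275677 and chr2:239275309-239276128 had signals of 56.64 (rank 61.71, score 974) and 66.06 (rank 73.27, score 1000). The difference was -27.32 points, and 9.79% of all shared regions were at least as far toward MP2_NTC. Both other *HDAC4* regions were unique to MP2_NTC and weak. The region chr2:239276975-239278322 held 3 peaks with ranks of 1.484 to 9.588 and lay 855 bp from the nearest MP2_HDAC1_OE peak, and chr2:239305669-239306488, within 1 kb of *MIR4269*, had a rank of 13.09.

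*HDAC9* (chr7:18086825-19002416, plus strand) is 915592 bp long and held 8 of the 27 regions, more than any of the other 9 genes. Its first start, with 41 CG dinucleotides and 3 GC boxes, had no peak in either line. The peaks lay in the body of the gene. In MP2_HDAC1_OE they spread over 5 places and in MP2_NTC they lay around internal start 2 (position 18509270). The MP2_HDAC1_OE peak chr7:18495418-18496237 (signal 40.2, rank 37.19, score 663) covered internal start 1 (position 18495710) and another at 18495749, and lay within 1 kb of a start at 18496262. The nearest MP2_NTC peak was 11851 bp away. The other regions unique to MP2_HDAC1_OE were away from every listed start, at chr7:18353255-18354074 (signal 43.63, rank 44.32), chr7:18456523-18457547 (2 peaks, highest rank 29.62) and chr7:18570391-18571210 (signal 52.97, rank 61.76).

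At internal start 2 of *HDAC9* both lines had peaks over nearly the same bases. In MP2_HDAC1_OE chr7:18508084-18508903 had a signal of 53.43 (rank 62.49, score 950) and chr7:18508683-18509020 a signal of 49.37 (rank 55.48, score 807). In MP2_NTC chr7:18508089-18508908 had a signal of 18.92 (rank 7.191, score 779) and chr7:18508744-18508960 a signal of 27.09 (rank 15.81, score 1000). The difference of 46.68 points was the widest of the 12 shared regions, and 3.79% of all shared regions were at least as far toward MP2_HDAC1_OE. Regions unique to MP2_NTC followed at and after the start. The first, chr7:18509111-18509930 (signal 23.99, rank 12.61), began 90 bp from the MP2_HDAC1_OE peaks. The second, chr7:18510933-18511752, had a signal of 47.39 and a rank of 46.5, and the third, chr7:18514027-18514846, a rank of 1.644. With 2 kb in place of 1 kb around the starts the second entered, and the MP2_NTC rank of *HDAC9* became 46.5 in place of 15.81, which left *HDAC3* and *HDAC8* with wider gaps. The size of the gap at this gene depended on the width of the window. Among the 314 protein-coding genes of 500 kb or longer, 2.23% had as many regions unique to MP2_HDAC1_OE (4) as *HDAC9* or more, a count chosen after the values had been seen.

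**Figure D3:**
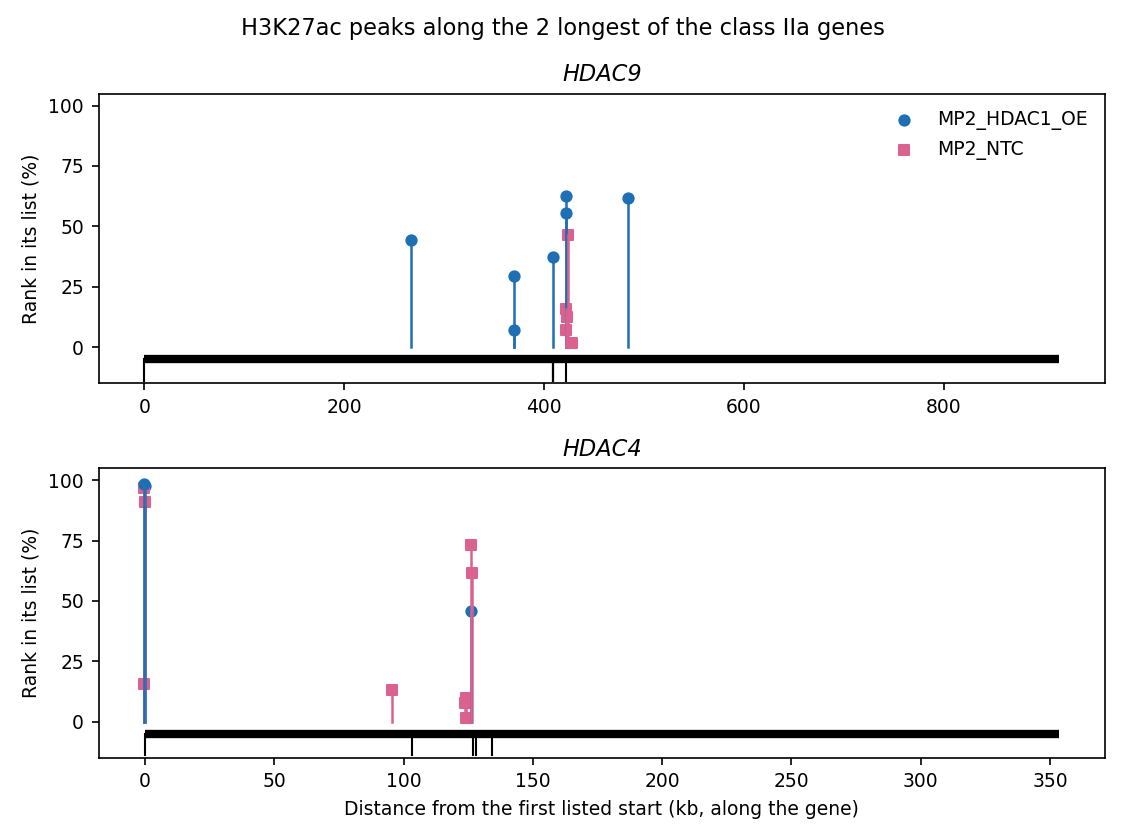
H3K27ac peaks along *HDAC9* (top) and *HDAC4* (bottom), with distance from the first listed start in kb along the gene on the x axis and the rank of each peak in its list, in percent, as the height, with circles for MP2_HDAC1_OE and squares for MP2_NTC. The black bar is the gene and the ticks under it are its listed starts. In *HDAC9* the first start had no peak and the MP2_HDAC1_OE peaks were spread along the gene, and in *HDAC4* both lines were highest at the first start.

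*HDAC7* (chr12:47782722-47821344, minus strand) had 1 region, unique to MP2_HDAC1_OE. It held chr12:47818718-47819537 (signal 29.88, rank 21.27), with its summit 776 bp past the listed start (position 47819903), and chr12:47818104-47818923 (signal 16.41, rank 5.582). Both had a score of 635. This was the lowest start rank of the 10 genes in MP2_HDAC1_OE, below the median rank of 41.56 for all regions unique to MP2_HDAC1_OE. The nearest MP2_NTC peak was 111940 bp away. The listed start lies inside the gene, which on that side ends at 47821344, and no peak of either list lay within 1 kb of that end. Both peaks were lost with the stricter threshold.

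*HDAC5* (chr17:44076753-44123641) was the gene with no peak at a gene end. The nearest peak lay 5047 bp from a gene end in MP2_HDAC1_OE and 6478 bp in MP2_NTC. All 3 of its window regions were outside the gene. Near *LSM12*, which encodes an RNA-binding protein, the MP2_HDAC1_OE peaks had signals of 39.36 and 49.69 (ranks 35.44 and 55.96) and the MP2_NTC peak a signal of 70.02 (rank 77.14), a difference of -21.18 points. Near *G6PC3*, a glucose-6-phosphatase gene, the MP2_HDAC1_OE peaks had signals of 59.96 and 39.98 (ranks 71.74 and 36.67) and the MP2_NTC peak a signal of 37.86 (rank 28.26), a difference of 43.48 points. These neighbouring regions moved in opposite directions, and 4.75% of all shared regions were at least as far toward MP2_HDAC1_OE as the latter. The third, chr17:44070887-44071706 (signal 38.05, rank 32.67), was unique to MP2_HDAC1_OE and lay 611 bp from an MP2_NTC peak.

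Of the class IIb genes, *HDAC6* ranked high in both lines and *HDAC10* ranked higher in MP2_HDAC1_OE. *HDAC6* (chrX:48801398-48824982, plus strand) has 3 listed starts close together. In MP2_HDAC1_OE chrX:48800732-48801551 had a signal of 75.82 (rank 86.1) and chrX:48801296-48801699 a signal of 68.13 (rank 80.15). In MP2_NTC chrX:48800762-48801581 had a signal of 75.67 (rank 81.82) and chrX:48801276-48801694 a signal of 90.65 (rank 90.29), the latter listed again with a signal of 12.96 (rank 1.236). All of these had a score of 1000, and the difference was -4.191 points. In MP2_NTC alone a further region lay downstream, with chrX:48802125-48802465 (signal 38.9, rank 30.33, score 582) and chrX:48802297-48803116 (signal 33.45, rank 22.17, score 657). This region counted as unique although it lay 425 bp from a peak of MP2_HDAC1_OE.

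*HDAC10* (chr22:50245183-50251265, minus strand) had a narrow start peak and 1 of the common 820 bp width in each line. In MP2_HDAC1_OE chr22:50250952-50251226 had a signal of 62.94 (rank 75.14, score 1000) and chr22:50251084-50251903 a signal of 39.23 (rank 35.12, score 645). In MP2_NTC chr22:50250837-50251175 had a signal of 55.11 (rank 59.6, score 900) and chr22:50250995-50251814 a signal of 26.65 (rank 15.34, score 757). Both the narrow and the 820 bp peak thus ranked higher in MP2_HDAC1_OE. The difference at the strongest peak was 15.54 points, and 25% of all shared regions were at least as far in that direction. Across the end of *HDAC10* and at the start of *TUBGCP6*, the peak chr22:50244447-50245266 (signal 49.82, rank 50.73) was unique to MP2_NTC. On the other side, at the start of the kinase gene *MAPK12*, the region chr22:50260604-50261629 (highest rank 57.09) was unique to MP2_HDAC1_OE and chr22:50262503-50263322 (rank 40.82) to MP2_NTC, 873 bp apart. The end of *MAPK11* also lay within 1 kb of the latter.

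*HDAC11* and *SIRT1* each had 1 shared region, at the start. *HDAC11* (chr3:13480306-13506416, plus strand) starts 253 bp from *HDAC11-AS1*, on the other strand. The MP2_HDAC1_OE peak chr3:13479501-13479705 (signal 45.44, rank 48.13, score 736) was 205 bp wide. The MP2_NTC peaks chr3:13479050-13479869 (signal 48.18, rank 47.98, score 932) and chr3:13479281-13480100 (signal 39.7, rank 31.75, score 651), both of the common 820 bp width, covered it. All 3 summits lay before the *HDAC11* start, at -616 to -847 bp, and the ranks were nearly equal. No interval reached into *HDAC11*, and these peaks cannot be assigned to 1 of the neighbouring genes alone.

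*SIRT1* (chr10:67884656-67918390, plus strand), whose 250 bases shown above hold both E-boxes, had peaks with summits on either side of the start in both lines. In MP2_HDAC1_OE chr10:67883950-67884769 had a signal of 62.54 (rank 74.68, score 953) and chr10:67884719-67885035 a signal of 64.63 (rank 76.97, score 1000). In MP2_NTC chr10:67883914-67884733 had a signal of 49.04 (rank 49.52, score 1000), chr10:67884431-67885250 a signal of 64.73 (rank 71.88, score 1000) and chr10:67884634-67885453 a signal of 16.45 (rank 4.621, score 831). The strongest peaks, with summits 179 and 184 bp inside the gene, differed by 5.092 points. A difference at least as far in that direction was found at 41.8% of all shared regions.

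**Figure D4:**
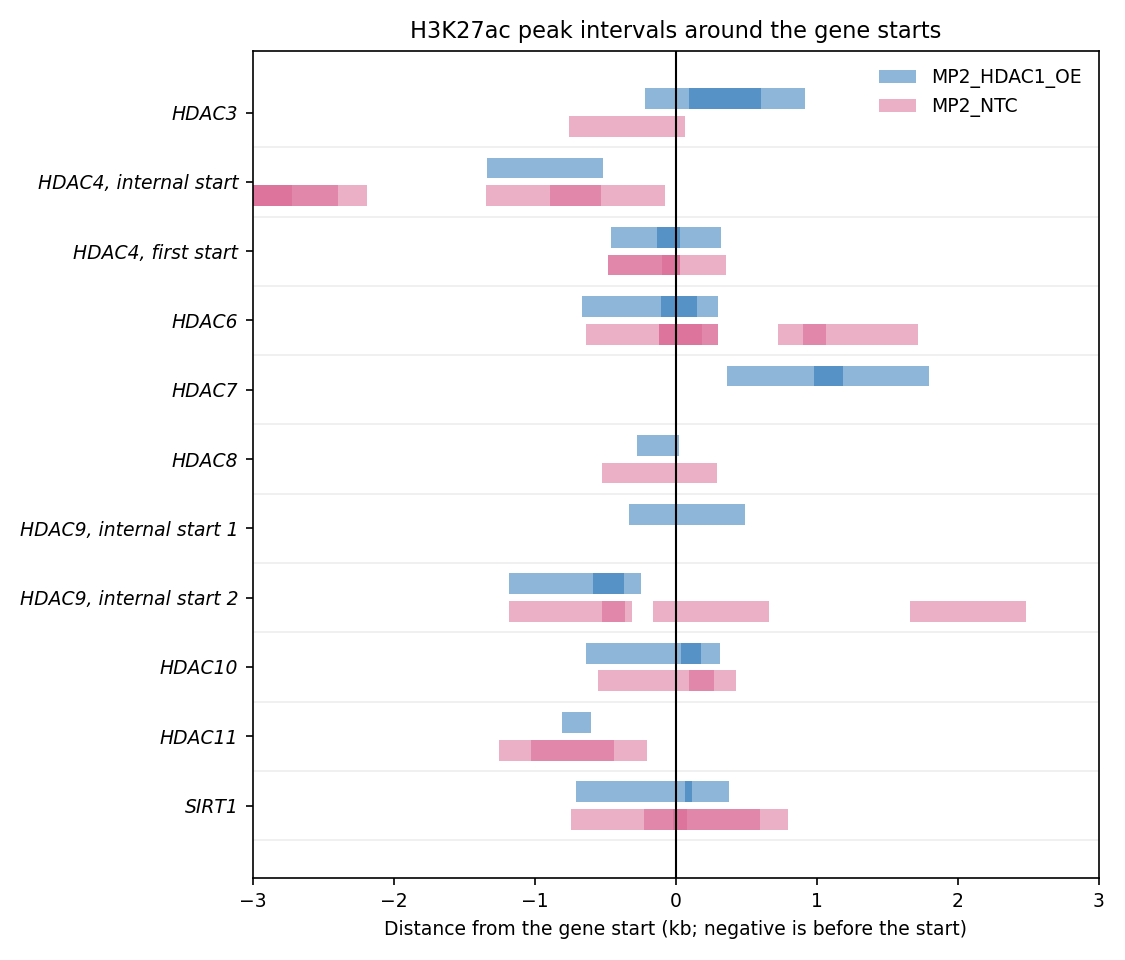
H3K27ac peak intervals within 3 kb of gene starts with a peak, in kb from the start along the gene, with MP2_HDAC1_OE (blue) above MP2_NTC (pink) for each start and a darker shade where intervals of the same list overlap. At *HDAC3* the MP2_HDAC1_OE intervals lie mainly inside the gene and the MP2_NTC interval before it, and *HDAC7* and *HDAC9* internal start 1 have no MP2_NTC interval. The row named *HDAC9* internal start 1 is centred on the adjacent listed start at position 18495749.

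Over the 12 shared regions, 3 ranked more than 20 points higher in MP2_HDAC1_OE (*HDAC3* start, *HDAC9* internal start 2 and the *G6PC3* region), where 19.7% of all 9477 shared regions did. Another 2 ranked more than 20 points higher in MP2_NTC (*HDAC4* internal start and the *LSM12* region), where 14.7% did. The median difference was 3.401 points in these 12 and 1.506 in all shared regions. All but the *G6PC3* and *HDAC9* regions lay between the 5th and 95th percentiles of all shared regions, which were -37.61 and 42.66 points.

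**Figure D5:**
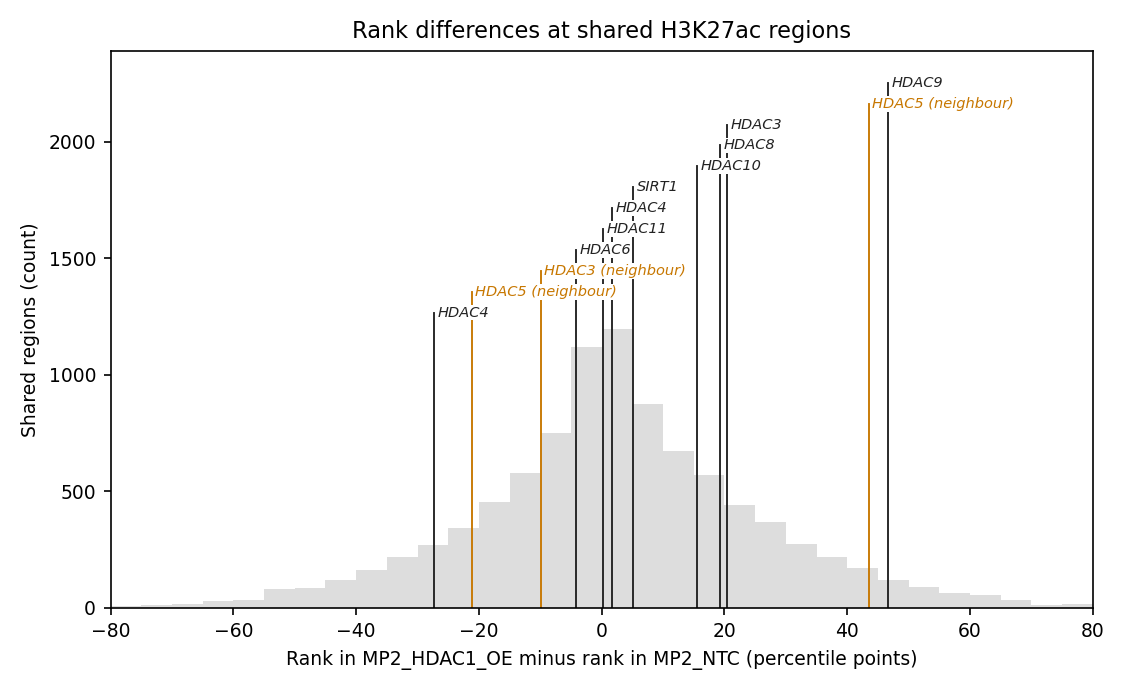
Number of shared H3K27ac regions (grey bars, bins of 5 points) by the rank in MP2_HDAC1_OE minus the rank in MP2_NTC, with lines for the 12 shared regions of the 10 genes, black at a start of the named gene and orange at a neighbouring gene in its window, and with the axis ending at 80 points on either side. The lines run from -27.32 (*HDAC4* internal start) to 46.68 (*HDAC9*), with *HDAC11*, *HDAC4* first start and *HDAC6* within 5 points of 0.

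Genes that work with these enzymes were counted in the same way. The 4 HDAC3 corepressor subunits *NCOR1*, *TBL1X*, *TBL1XR1* and *GPS2* had a start peak in both lists, and 2 of the 4 ranked higher in MP2_HDAC1_OE. Over the protein-coding genes with a listed start, 38.7% had a start peak in both lists and 54.6% of those ranked higher in MP2_HDAC1_OE, which is the background for each of these lists. Of the 4 MEF2 genes, which encode the class IIa partners, 3 (*MEF2B*, *MEF2C* and *MEF2D*) had no start peak in either list, and *MEF2A* had 1 in MP2_NTC alone, at a rank of 68.74. Of the 8 other deacetylases (*HDAC1*, *HDAC2* and *SIRT2* to *SIRT7*), 6 had a start peak in both lists and 3 of these ranked higher in MP2_HDAC1_OE. *SIRT2* had a start peak in MP2_HDAC1_OE alone, at a rank of 71.34, and *SIRT7* had none at its gene ends. *HDAC2*, the closest paralog of *HDAC1*, had ranks of 80.69 in MP2_HDAC1_OE and 97.7 in MP2_NTC.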

How the data were processed

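The authors processed H3K27ac ChIP-sequencing reads with the ENCODE ChIP-seq pipeline. The submitters' processing notes name BWA 0.7.12, Picard 1.88 and the build hg38, and the peak caller is not given in the sources used here. For each line the deposited file pools 2 samples and lists the peaks kept as optimal by a test of reproducibility (IDR). No-antibody samples were the controls. Each peak has a signal value that the authors deposited as the caller gave it. Each also has a score that the authors deposited from the IDR test. The lists hold no counts, so depth is unknown, and differences in depth or enrichment between the lines cannot be told apart from differences in H3K27ac.

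The members and gene lists were chosen with earlier results of these data known. Peaks overlapping a gene or the 20 kb on either side were taken, and peaks of both lists sharing 1 bp were merged into regions. A start peak overlapped the 1 kb on either side of a RefSeq start (GRCh38.p14). Where a gene had no listed start both gene ends were used. The rank of a region was that of its strongest peak. All 10 genes were named, with their start peaks and the strongest window peak of each list. Neighbours were named where a window peak lay within 1 kb of either end of the gene, and regions by place were counted at listed starts. Of the other lists, genes with start peaks of 1 list or none were named, and all other names there were added after their values were seen. 1 gene of these lists is not reported here. Summits lay within 1 kb of a listed start in 55.6% (MP2_HDAC1_OE) and 60.1% (MP2_NTC) of peaks, and in 3.74% and 3.92% after a move of 100 kb. Alternatives covered windows, thresholds, equal numbers of peaks and rules of overlap. Python 3.11.15, numpy 2.4.6, pandas 2.3.3 and matplotlib 3.10.9 were used, and the methods were tested on simulated data.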

Additional observations from a re-analysis of the deposited data

How the results depend on the processing

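Of 47 alternatives of 11 counts, 40 stayed within 1.5 times the reported count. A stricter threshold kept the 75% of each list with the highest signal. The MP2_NTC peaks in the windows then fell from 34 to 21 and the regions unique to MP2_NTC from 8 to 4. The MP2_HDAC1_OE peaks fell from 30 to 26, and the regions unique to MP2_HDAC1_OE stayed at 7. Which line had more peaks and more unique regions in the windows thus depended on this threshold. Counting single peaks in place of merged regions gave 17 unique to MP2_HDAC1_OE and 20 unique to MP2_NTC where 50% of both peaks had to overlap. Where 1 bp was enough, 11 were unique to MP2_HDAC1_OE and 11 to MP2_NTC, and the other 19 MP2_HDAC1_OE peaks were shared. Past 10 points in place of 20, 5 shared regions ranked higher in MP2_HDAC1_OE, where 32.8% of all shared regions did. Single start ranks changed by -13.34 to 30.69 points over 51 alternatives, the latter at *HDAC9* in MP2_NTC with 2 kb around the start. With 2 kb around the starts, an alternative chosen after seeing the data, 10 genes of the deacetylase, corepressor and MEF2 lists had a start peak in both lists, as with 1 kb.

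No paired analysis was possible because the deposited peaks combine replicates, which also prevented leaving out a sample. The error of a rank is not known, and the score was not used to compare the lines.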
